A study of Mus musculus with 8 samples.

Results

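The comparison described here set CCR2-/- against wild-type CD45RBhigh T cells, and it rested on 4 of the series' 8 microarrays, chosen by the genotype and the sorted population in their sample titles. The 4 arrays were 2 of wild-type and 2 of CCR2-/- CD45RBhigh cells. All cells were splenic CD4+CD25- T cells sorted from C57BL/6 mice aged 6 to 8 weeks and put on plates coated with antibodies to CD3 and CD28. The only difference that the labels name between the groups is the genotype, wild type or CCR2-/-. The time of stimulation is given as 48 h in the samples' protocols and as 2 h in the series' design text, and these statements could not be reconciled. The other 4 arrays were of CD45RBlow cells of both genotypes. They entered the filter on low values, the choice of probe set and the estimate of the spread. They also entered the comparison of the genotype difference between the sorted populations. With all 8 arrays in the fit they did not enter the CD45RBhigh difference itself. The titles carry either the number 2 or no number, and arrays with no number were taken as 1. Arrays of one number are called pair 1 and pair 2 here, although the labels do not say what the number marks. No label says that same-group arrays came from separate animals or cultures, or how many mice gave the RNA of an array, so p-values here speak only of array-to-array spread, which may be technical.

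CCR2 is a chemokine receptor for CCL2 and related ligands, best known for bringing monocytes out of the bone marrow and into inflamed tissue, and it is also found on some activated and memory T cells. CD45RB is an isoform of the surface phosphatase CD45 that is abundant on naive CD4 T cells and declines on antigen-experienced ones. Transferred CD4+CD45RBhigh cells cause colitis in lymphocyte-deficient mice, which makes this population a standard source of pathogenic T cells. After stimulation through CD3 and CD28 such cells make IL-2, begin to divide and take up helper programmes such as Th1, Th2 and Th17, each with its own transcription factors and cytokines.

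Values are log2 RMA expression values as deposited, so a difference of 1 is a 2-fold change. Of 22180 genes with a probe set of their own, 13508 reached the 40th percentile of their array on at least 2 arrays and were tested with limma. Array medians lay between 4.92 and 5.05. Over all probe sets the 2 CCR2-/- CD45RBhigh arrays had the lowest correlation of the same-genotype pairs within this population, 0.984 against 0.992 for wild type, and pair 1 wild type and CCR2-/- correlated at 0.994. On the second principal component, which held 23.5% of the variance, the first CCR2-/- array lay at -25.9 and the second at 16.1, with the wild-type arrays at -12.9 and 7.88. Sex-linked transcripts followed the pair number and not the genotype. Xist, the RNA that silences an X chromosome in female cells, lay at 4.45 to 5.02 on the 4 arrays numbered 1 and at 11.74 to 12.07 on the 4 numbered 2. The 3 Y-linked genes tested, Kdm5d, Uty and Eif2s3y, lay at 8.83 to 9.97 on the arrays numbered 1 and at 7.58 to 9.11 on those numbered 2, so both Xist and Y-linked signal were present on the latter. A difference between the pairs therefore cannot be told apart from this difference in sex-linked transcripts. Cd4 was even over the 4 CD45RBhigh arrays, 11.57 to 11.66, and so was Cd3d, 9.44 to 9.74.

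No gene passed an adjusted p of 0.05 between the genotypes in CD45RBhigh cells (0% of the 13508 tested, limma with the pair number as a block and Benjamini-Hochberg adjustment). At an unadjusted p under 0.05, 573 genes (4.24%) differed, 364 higher (2.69%) and 209 lower (1.55%) in CCR2-/-, where 5% of the genes tested would be 675.4. Without the block for the pairing the count was 354. With each array shifted to a common median the split turned to 174 higher and 279 lower, so the excess of higher genes depended on the scaling. The count was 970 without the second CCR2-/- CD45RBhigh array. The median standard error of a difference was 0.13, and the median half-width of its 95% interval was 0.30. In simulated data with the spread of these arrays, 79 of 100 genes given a shift of 1 log2 unit and 100 of 100 given a shift of 2 were called. There were 13 false calls among 13308 unchanged genes. All these genes were shifted in the same data, which eases the adjustment, so the shares do not hold where few genes change. In the real data Casp1, with a difference of -1.42 and a standard error of 0.13, had an adjusted p of 0.167 (limma).

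The gene with the smallest p was Casp1, the protease of the inflammasome that processes the precursors of IL-1 beta and IL-18 and cleaves gasdermin D. Casp1 was at 7.87 and 7.80 in wild type and at 6.28 and 6.56 in CCR2-/-, pairs 1 and 2 in that order. Both CCR2-/- arrays were below both wild-type arrays by more than 1 log2 unit, and the group means were 7.83 ± 0.04 and 6.42 ± 0.19 (SD, n = 2 each). The fitted difference was -1.42 with a standard error of 0.13 and a 95% interval from -1.72 to -1.11, a 2.67-fold lower level in CCR2-/- (limma, unadjusted p = 1.24e-05, adjusted p = 0.167). In CD45RBlow cells Casp1 was at 8.52 and 8.59 in wild type and at 8.10 and 7.98 in CCR2-/-, again without overlap. There the difference was -0.52 (limma, unadjusted p = 0.00496, adjusted p = 0.985). The difference between these effects was -0.90 with a standard error of 0.18 (limma interaction, unadjusted p = 0.00167, adjusted p = 0.9998). Casp1 stands here for its smallest p in CD45RBhigh cells, and that difference is part of the interaction, so the unadjusted interaction p is likely too small.

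Casp1 is neighboured on chromosome 9 by Casp4, which codes for caspase-11, the sensor of intracellular lipopolysaccharide. In RefSeq's GRCm38.p6 annotation 0 protein-coding genes lie between them. Ccr2 is on the same chromosome, with 1184 protein-coding genes between it and Casp1. Casp4 was at 10.39 and 10.03 in wild type and at 9.07 and 9.86 in CCR2-/-. The groups did not overlap, but nearly all of the difference of -0.74 (95% interval -1.32 to -0.17; limma, unadjusted p = 0.0185, adjusted p = 0.947) lay in pair 1, -1.32 against -0.17 in pair 2, and it came to -0.33 without the first CCR2-/- array. Of the 12 genes tested on the list of caspase-1 and IL-1 family genes, 5 were lower and 1 higher in both pairs, and the list's median difference was -0.08, beside 0.02 over all genes tested. Across all genes tested, 22.7% were lower and 30.4% higher in both pairs. Casp1 and Casp4 were the only members of that list with an unadjusted p under 0.05.

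The 10 genes with the smallest p on each side were taken among those with the same sign in both pairs and a usual symbol. Gene models named only by Gm, LOC, AK or BC numbers or as Rik clones were tested but left out of this choice. Some of them had a smaller p than most genes described here, for example 4930428O21Rik with a difference of -1.02 (limma, unadjusted p = 0.000329). The genes taken carried differences of 0.48 to 1.53 on the higher side and of -1.61 to -0.52 on the lower side. All but Casp1 had an adjusted p of 0.947. Arrays of the genotypes did not overlap for 19 of the 20, Tspan32 being the exception, whereas over all genes tested both CCR2-/- arrays lay above both wild-type arrays for 15.2% and below them for 11.2%. These genes were chosen for their p in this comparison, so the lack of overlap is a description. Interaction p-values of genes named for a small p here share the selected difference and are likely too small. Of the 10 genes on each side, 5 on the higher and 7 on the lower had an unadjusted interaction p under 0.05 (limma), beside 2.13% of all genes tested.

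**Figure D1:**
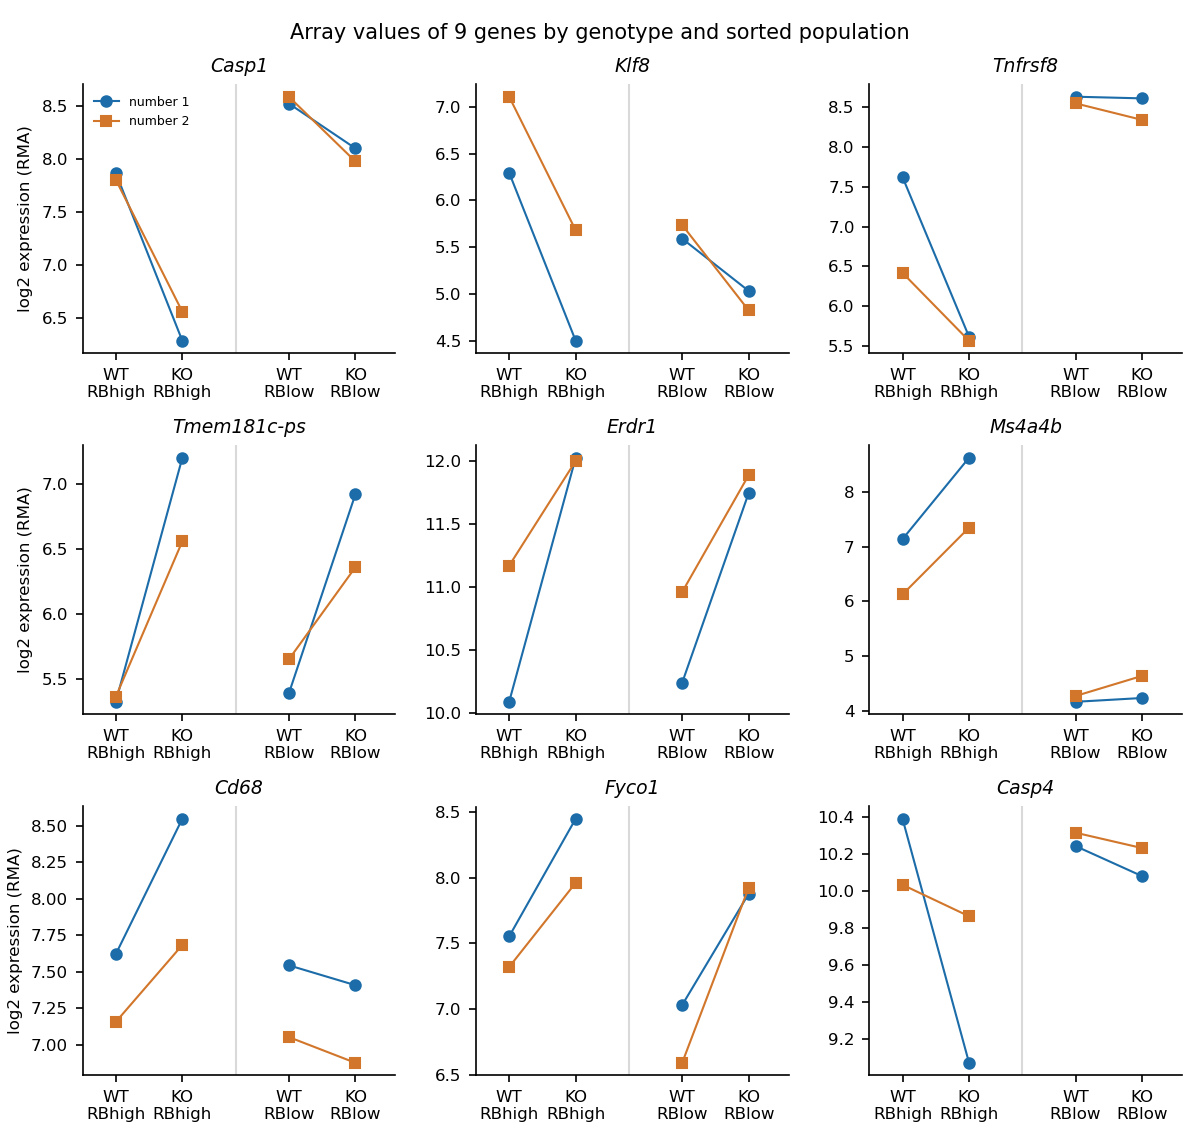
Log2 expression of 9 genes on each of the 8 arrays, wild type (WT) and CCR2-/- (KO), CD45RBhigh cells on the left and CD45RBlow cells on the right of each panel; lines join arrays with the same number and each panel has its own vertical scale. Casp1, Klf8 and Tnfrsf8 lie lower and Tmem181c-ps, Erdr1, Ms4a4b, Cd68 and Fyco1 higher in both CD45RBhigh CCR2-/- arrays, while the lower Casp4 value is mostly that of pair 1.

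On the lower side, Klf8, a Krüppel-like zinc-finger transcription factor, was at 6.30 and 7.11 in wild type and at 4.50 and 5.68 in CCR2-/-. Its difference of -1.61 (standard error 0.31; limma, unadjusted p = 0.00135) had the same sign in CD45RBlow cells, where it was -0.74. Tnfrsf8, which codes for CD30, a TNF receptor family member of activated T cells, was at 7.62 and 6.42 in wild type and at 5.62 and 5.57 in CCR2-/-, a difference of -1.43 (standard error 0.27; limma, unadjusted p = 0.00127). In CD45RBlow cells Tnfrsf8 lay between 8.34 and 8.63 on all 4 arrays and its difference was -0.11.

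Calcrl, the receptor that pairs with RAMP proteins to bind adrenomedullin and CGRP, was at 11.19 and 11.44 in wild type and at 10.28 and 10.89 in CCR2-/-. Nfia, a transcription factor of the nuclear factor I family, was at 6.79 and 6.91 against 5.88 and 6.52. Both were lower in each CCR2-/- array than in either wild-type array, by -0.73 and -0.65 in the fit, and both had differences of the other sign in CD45RBlow cells, 0.06 and 0.18. Gnpda1, a deaminase of glucosamine-6-phosphate, Mtmr7, a phosphoinositide phosphatase of the myotubularin family, Ssxb8 and the pseudogene Pisd-ps3 lay lower by -0.58, -0.69, -0.58 and -0.73. Timm8a1, a chaperone of import into mitochondria, lay lower by -0.52 on the probe set used, but its other probe sets differed by -0.03 and 0.07.

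On the higher side the largest difference was that of Tmem181c-ps, a transcribed pseudogene, at 5.33 and 5.37 in wild type and at 7.20 and 6.56 in CCR2-/-. Its difference was 1.53 (standard error 0.23; limma, unadjusted p = 0.000312), and in CD45RBlow cells it was 1.12, from 5.39 and 5.65 to 6.92 and 6.36. Erdr1, named as an erythroid differentiation regulator, is likewise a transcribed pseudogene in the RefSeq annotation. It was at 10.09 and 11.17 in wild type and at 12.03 and 12.00 in CCR2-/-, a difference of 1.39 (standard error 0.26; limma, unadjusted p = 0.00115). Its second probe set gave 1.41, and in CD45RBlow cells the difference was 1.22. For both genes the CCR2-/- arrays were thus above the wild-type arrays in each sorted population. Casp1, Klf8, Tmem181c-ps and Ms4a4b, a membrane-spanning 4-domain protein of T cells, were the only genes that differed by more than 1 log2 unit in the same direction in both pairs. Ms4a4b was at 7.14 and 6.13 in wild type and at 8.62 and 7.35 in CCR2-/-, a difference of 1.35 (95% interval 0.41 to 2.30; limma, unadjusted p = 0.0118), and was at 4.17 to 4.64 in CD45RBlow cells.

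Cd68, a lysosomal glycoprotein used as a macrophage marker, was at 7.62 and 7.16 in wild type and at 8.55 and 7.68 in CCR2-/-, a difference of 0.73 (limma, unadjusted p = 0.000904). Of the 16 macrophage and monocyte markers listed, 5 were tested, 2 of them higher and 2 lower in both pairs, and the mean of the 5 was 6.28 and 6.56 in wild type and 6.46 and 6.69 in CCR2-/-. The defining macrophage markers Adgre1 and Lyz2 were below the filter on low values, at 4.04 to 4.19 and 3.85 to 4.02 on the 4 arrays. For Lyz2 both CCR2-/- arrays lay just above both wild-type arrays, the higher of which was at 3.98. Myb, a transcription factor of blood progenitors and T cells, Tspan32, a tetraspanin of blood cells, and Blvrb, a biliverdin reductase, lay higher by 0.60, 0.53 and 0.71. A second, dimmer Myb probe set differed by 0.07. Slc9b2, a sodium/proton exchanger, Ssbp4 and Rex2 lay higher by 0.48, 0.48 and 0.59.

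The receptor gene itself was dim. Ccr2 was at 4.45 and 4.26 in wild type and at 4.62 and 4.75 in CCR2-/-, percentiles 35.8, 27.0, 42.4 and 43.6 of their arrays, and its difference was 0.32 (95% interval -0.03 to 0.67; limma, unadjusted p = 0.0655). Where the probes lie relative to the deleted part is not given in the sources used here, so these values check nothing about the genotype labels. The ligand genes Ccl2 and Ccl7 differed by -0.05 and 0.01. Ccl12 was below the filter.

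Fyco1, which codes for an adaptor that carries autophagosomes along microtubules, lies on chromosome 9 with 5 protein-coding genes between it and Ccr2. It was at 7.55 and 7.32 in wild type and at 8.45 and 7.96 in CCR2-/- CD45RBhigh cells, a difference of 0.77 (standard error 0.15; limma, unadjusted p = 0.00143). In CD45RBlow cells it was at 7.03 and 6.59 against 7.88 and 7.92, a difference of 1.09, so the CCR2-/- arrays lay above the wild-type arrays of their own population throughout. Of the 18 genes tested on the list of genes near Ccr2, 6 were higher and 3 lower in both pairs, and the list's median difference was 0.02, the same as over all genes. That list reaches as far as Nbeal2, with 136 protein-coding genes between it and Ccr2. Its median is therefore not that of close neighbours alone.

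The pairs gave different pictures of the genotype. Over the 13508 genes the CCR2-/- minus wild-type difference of pair 1 correlated with that of pair 2 at r = 0.053, a description over genes, which are not independent. The signs were the same for 53.1% of genes. In pair 1, 27 genes were more than 1 log2 unit higher and 82 more than 1 lower. In pair 2 the counts were 12 and 16. The largest differences of pair 1 were those of Il21, Cysltr2 and Lilrb4a. Il21, the cytokine of follicular helper and Th17 cells, was at 8.70 in wild type and at 4.89 in CCR2-/- in pair 1, but at 5.13 and 5.53 in pair 2. Cysltr2, a receptor for cysteinyl leukotrienes, was at 10.06 and 6.67 in pair 1 and at 8.59 and 8.48 in pair 2. Lilrb4a, an inhibitory immunoglobulin-like receptor, was at 9.53 and 6.57 in pair 1 and at 8.22 and 7.94 in pair 2. These 3 genes were chosen after their values were seen. In each the wild-type array of pair 1 was the highest and the CCR2-/- array of pair 1 the lowest of the 4.

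**Figure D2:**
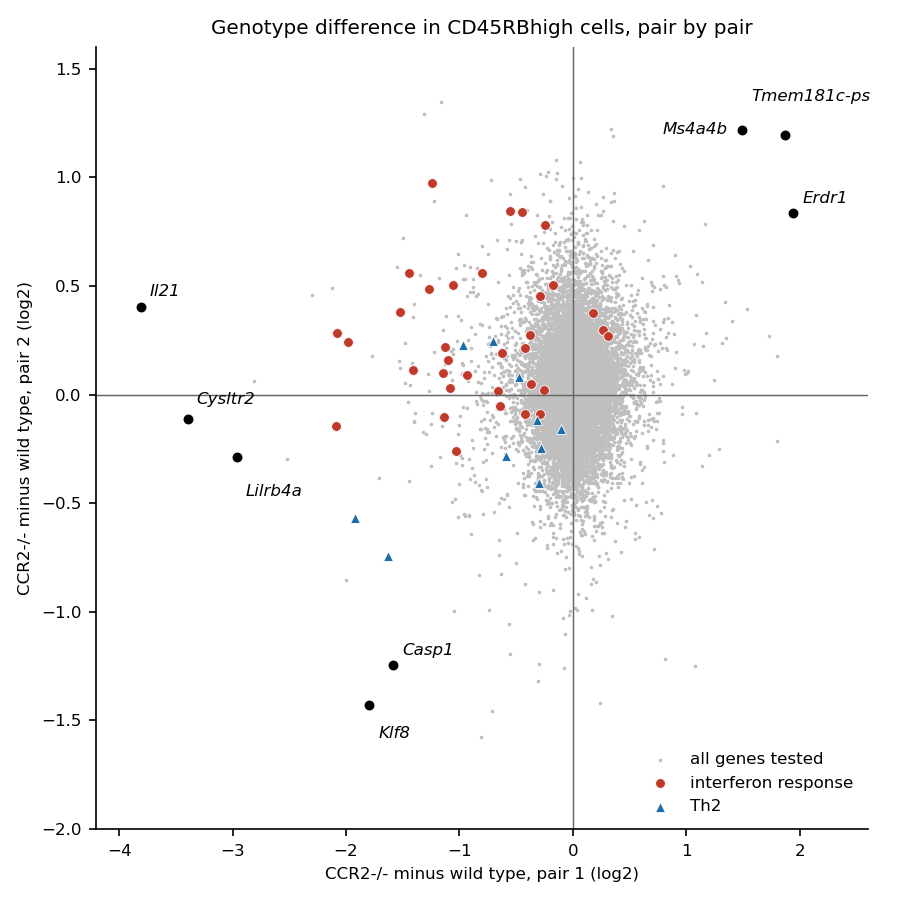
Difference between CCR2-/- and wild-type CD45RBhigh cells in pair 1 (horizontal axis, log2) and pair 2 (vertical axis, log2) for the 13508 genes tested, with interferon-response genes as circles, Th2 genes as triangles and 8 further genes named. The cloud shows no shared slope (r = 0.053), Casp1 and Klf8 lie far out at the lower left and Ms4a4b, Tmem181c-ps and Erdr1 at the upper right, and interferon-response genes lie mostly left of 0 and above 0.

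Genes of the interferon response differed in opposite directions in the pairs. Interferons act on cells through receptors that switch on transcription factors, and these bind the interferon-stimulated response element of their target genes. The genes Isg15, Ifit1, Stat2 and Oas3 are shown because they stand for the effectors and regulators of the list and hold the core letters of that element, GAAANNGAAA or its reverse complement TTTCNNTTTC. The 250 bases before each RefSeq start (GRCm38.p6) follow, 5′ to 3′ on the gene's strand, with the matches in capitals.
Isg15 (chr4:156200819-156201068, minus strand): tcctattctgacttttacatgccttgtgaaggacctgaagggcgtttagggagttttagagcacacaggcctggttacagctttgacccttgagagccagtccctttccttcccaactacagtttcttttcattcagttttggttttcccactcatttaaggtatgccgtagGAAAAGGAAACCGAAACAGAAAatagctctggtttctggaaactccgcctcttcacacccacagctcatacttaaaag
Ifit1 (chr19:34640639-34640888, plus strand): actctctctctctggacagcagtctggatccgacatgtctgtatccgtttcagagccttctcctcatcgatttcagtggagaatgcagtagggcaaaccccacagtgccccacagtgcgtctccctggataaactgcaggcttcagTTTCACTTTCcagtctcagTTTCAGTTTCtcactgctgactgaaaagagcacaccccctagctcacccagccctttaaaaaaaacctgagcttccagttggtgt
Stat2 (chr10:128270248-128270497, plus strand): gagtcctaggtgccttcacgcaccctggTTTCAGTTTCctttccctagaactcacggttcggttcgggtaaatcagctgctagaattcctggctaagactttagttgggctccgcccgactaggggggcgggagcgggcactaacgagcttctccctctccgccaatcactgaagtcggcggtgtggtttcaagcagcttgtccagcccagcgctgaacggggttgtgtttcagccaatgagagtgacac
Oas3 (chr5:120777660-120777909, minus strand): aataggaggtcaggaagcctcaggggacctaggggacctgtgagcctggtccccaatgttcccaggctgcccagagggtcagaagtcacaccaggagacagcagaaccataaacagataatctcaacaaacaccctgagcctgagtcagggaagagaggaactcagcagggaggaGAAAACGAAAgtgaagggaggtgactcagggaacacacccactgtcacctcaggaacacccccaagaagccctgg
The Isg15 window holds 3 overlapping matches, that of Ifit1 holds 2, and those of Stat2 and Oas3 hold 1 each. Of the 34 genes tested on the interferon list, 25 had a promoter in the RefSeq table, and 13 of these windows (52%) held the core on either strand, against 309 of 10547 (2.93%) for all genes tested and 823 of 27025 (3.05%) for all promoters in the table. A match is a description of the letters and not of binding.

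Of the 34 interferon-response genes, 31 were lower in CCR2-/- in pair 1 and 28 were higher in CCR2-/- in pair 2. For 25 of them both held, where 24.6% of all genes tested were lower in pair 1 and higher in pair 2. The list's median difference was -0.73 in pair 1 and 0.23 in pair 2, beside 0.01 and 0.03 over all genes tested. Its mean level was 7.72 and 8.37 in wild type and 6.91 and 8.64 in CCR2-/-. The first CCR2-/- array was thus the lowest of the 4 and the second the highest, and single genes followed the same order: the first was lowest for 30 of the 34 and the second highest for 26. In CD45RBlow cells the list's mean was between 6.53 and 6.88, below each CD45RBhigh array. The fitted median of -0.27 became 0.35 without the first CCR2-/- array and -0.84 without the second.

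Isg15, the ubiquitin-like modifier that is conjugated to proteins after interferon, was at 5.23 and 6.50 in wild type and at 4.67 and 7.34 in CCR2-/-. Ifit1, which binds foreign RNA, was at 7.05 and 8.96 in wild type and at 5.91 and 9.06 in CCR2-/-. Stat2, a transcription factor of interferon signalling, was at 9.31 and 9.69 against 8.18 and 9.91. In these 3 genes the CCR2-/- arrays enclosed both wild-type arrays. The same held for Oas3, an oligoadenylate synthetase, at 8.60 and 8.78 in wild type and 7.16 and 9.34 in CCR2-/-. It also held for Irf7, the transcription factor that amplifies interferon production, at 5.67 and 7.13 against 4.44 and 8.11. Usp18, the protease that removes ISG15 and restrains the interferon receptor, had the largest pair 1 difference of these 6, at 9.90 and 11.02 in wild type and 7.82 and 11.31 in CCR2-/-. These 6 genes were chosen after their values were seen, and their fitted differences, from -0.90 for Usp18 to 0.14 for Isg15, had unadjusted limma p-values between 0.176 and 0.876. By the rule for named genes the list gave Trim30d, a tripartite-motif gene, and Phf11b. Trim30d was at 9.78 and 9.98 in wild type and at 7.68 and 9.83 in CCR2-/-, a difference of -1.12 (95% interval -2.09 to -0.15; limma, unadjusted p = 0.0299) that came to -0.31 without the first CCR2-/- array and to -1.93 without the second. Phf11b was at 9.62 and 9.67 against 9.93 and 9.95, and was 1 of the 3 members higher in both pairs.

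**Figure D3:**
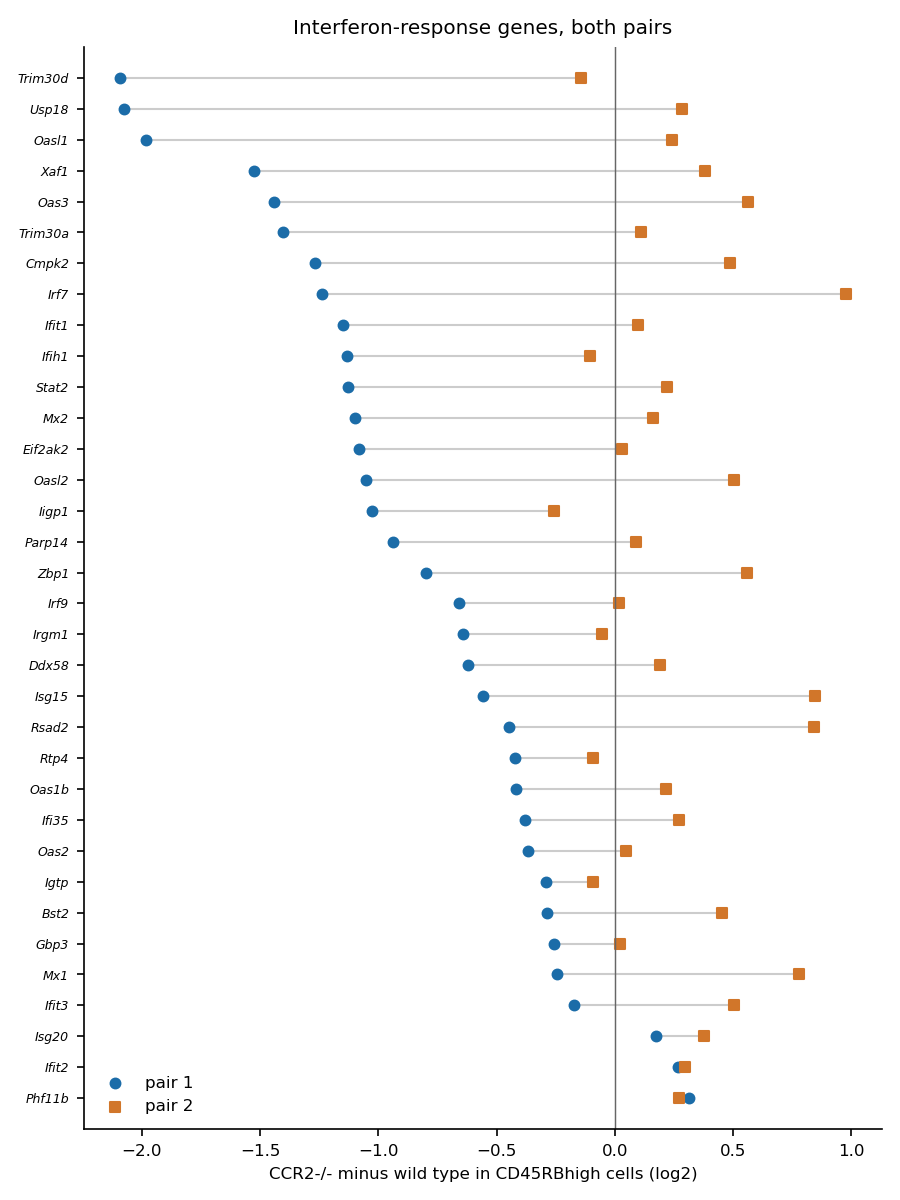
Difference between CCR2-/- and wild-type CD45RBhigh cells (log2) for each of the 34 interferon-response genes tested, pair 1 as circles and pair 2 as squares, sorted by pair 1. In pair 1, 31 genes lie left of 0; in pair 2, 28 lie right of 0.

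The lowest median of the pathway lists with 5 or more genes tested was that of the Th2 programme, at -0.31 beside -0.27 for the interferon list. With the stricter filter the order turned, at -0.26 and -0.34, and so it did with the mean of all probe sets of a gene, at -0.25 and -0.27. All 10 genes tested were lower in CCR2-/- in pair 1, and 7 were lower in both pairs, where 22.7% of all genes were. The Th2 median was -0.53 in pair 1 and -0.20 in pair 2. For 6 of the 10 both CCR2-/- arrays lay below both wild-type arrays (11.2% of all genes tested). In CD45RBlow cells the median was 0.01. Leaving out the second CCR2-/- CD45RBhigh array moved the Th2 median to -0.59, and leaving out the first moved it to -0.20.

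Il24, an IL-10 family cytokine, was at 7.25 and 5.88 in wild type and at 5.33 and 5.31 in CCR2-/-, a difference of -1.24 (95% interval -1.96 to -0.53; limma, unadjusted p = 0.0047, adjusted p = 0.947). Gata3, the transcription factor that sets up the Th2 programme, was at 9.32 and 9.46 in wild type and at 8.73 and 9.18 in CCR2-/-, a difference of -0.43 (95% interval -0.73 to -0.14; limma, unadjusted p = 0.0104). Its difference in CD45RBlow cells had the other sign, 0.20 (limma interaction -0.63, unadjusted p = 0.00903). A second, dimmer Gata3 probe set, at 4.73 to 5.09 on the CD45RBhigh arrays, differed by -0.05 in these cells. Il13, an effector cytokine of Th2 cells, was at 8.08 and 9.10 in wild type and at 6.45 and 8.35 in CCR2-/-, lower by 1.63 in pair 1 and by 0.74 in pair 2 with overlapping groups. Il5, which drives eosinophils and was chosen after its values were seen, was dim at 4.54 and 4.65 against 4.24 and 4.25.

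Among the 29 helper cytokines tested, 9 were lower and 5 higher in both pairs, and the median difference was -0.16. Il2, the growth factor made within hours of activation, was at 12.39 and 12.68 in wild type and at 11.14 and 12.55 in CCR2-/-, so its difference of -0.69 (95% interval -1.56 to 0.17) came from pair 1. Csf2, which codes for GM-CSF and was chosen after its values were seen, was lower in both pairs, at 7.91 and 10.09 against 7.17 and 9.10, but the pairs differed by more than the genotypes. Its difference was -0.86 (95% interval -1.81 to 0.08), and it was -1.06 in CD45RBlow cells. Ifng, the Th1 cytokine, was at 8.79 and 8.33 in wild type and at 7.78 and 8.15 in CCR2-/-. The groups did not overlap, but the 95% interval of the difference ran from -1.49 to 0.30. Il10, Il17a and Il4 were at 4.83 to 5.33, 3.92 to 4.24 and 5.25 to 5.66 on the 4 arrays, with differences of -0.23, 0.15 and -0.22 and intervals that all held 0. Il17a lay at percentiles 6.19 to 25.3 of the CD45RBhigh arrays and passed the filter only through CD45RBlow arrays.

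The regulators of the other helper programmes differed by less than 1 log2 unit in the fit. Tbx21, the Th1 factor, was at 10.43 and 10.79 in wild type and at 9.97 and 10.81 in CCR2-/-. Batf, an AP-1 factor needed for Th17 and follicular helper cells, was at 9.15 and 9.25 against 8.15 and 8.84, a difference of -0.71 (95% interval -1.17 to -0.25; limma, unadjusted p = 0.00865). Foxp3, the factor of regulatory T cells, was at 5.37 and 5.79 against 5.88 and 5.31, while it lay between 7.87 and 9.14 in CD45RBlow cells. Il2ra, which codes for CD25, lay between 12.25 and 12.50 on the 4 arrays. The Th1 list, with 14 genes tested, had 2 members higher and 3 lower in both pairs and a median of -0.06. The Th17 list had 2 higher and 3 lower of 11 and a median of -0.10, and the regulatory T cell list 5 higher and 2 lower of 19 and a median of 0.02.

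Metabolic and stress lists had medians near that of all genes tested. Of the 20 oxidative phosphorylation genes tested, 13 were higher and 2 lower in both pairs, and the median difference was 0.05. Of the 23 genes of the amino acid and unfolded protein response, 12 were higher and 2 lower in both pairs, with a median of 0.10. Aldh1l2, a mitochondrial enzyme of folate metabolism on that list, was at 6.47 and 7.19 in wild type and at 7.57 and 7.75 in CCR2-/-, a difference of 0.83 (95% interval 0.32 to 1.33; limma, unadjusted p = 0.00638). The cholesterol and fatty acid synthesis list had 8 higher and 1 lower of 17 in both pairs, with a median of 0.08. Of the 19 glycolysis and hypoxia genes, 13 were lower in pair 1 and higher in pair 2 and 4 were higher in both, with a median of 0.01. All these medians lay within 0.1 of that over all genes tested, and 30.4% of all genes were higher in both pairs. The second CCR2-/- array also had the highest array median of the 4, 5.05 against 4.95 on the other 3.

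**Figure D4:**
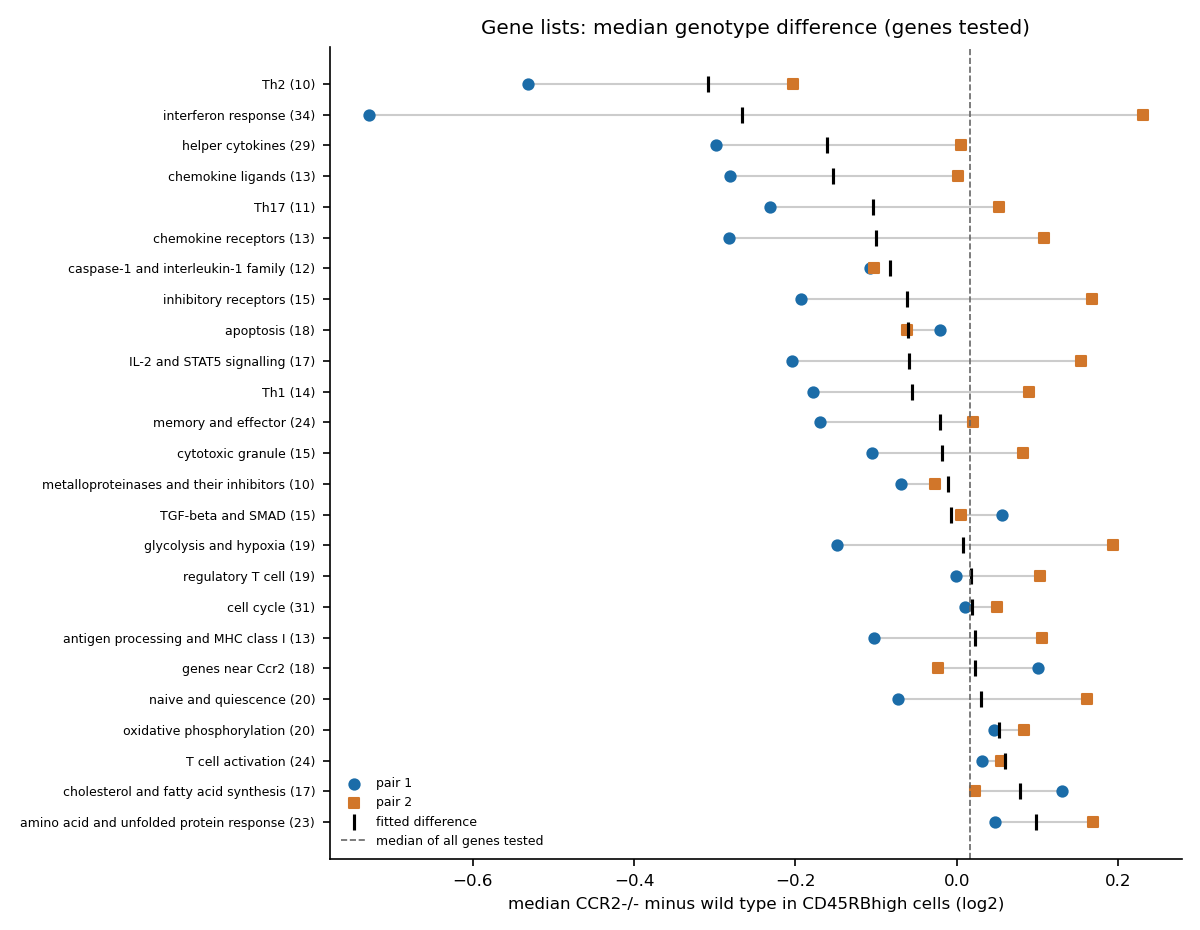
Median CCR2-/- minus wild-type difference (log2) in CD45RBhigh cells of each pathway list with 5 or more genes tested, as circles for pair 1, squares for pair 2 and short vertical marks for the fitted difference; the dashed line is the median over all genes tested, 0.02. The Th2 list lies lowest in the fit at -0.31 with both pairs below 0, and the interferon list spans -0.73 to 0.23.

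Naive, memory and activation genes had list medians near that of all genes tested. Of 20 naive and quiescence genes tested 8 were higher and 2 lower in both pairs, of 24 memory and effector genes 4 and 8, and of 24 T cell activation genes 9 and 4, with medians of 0.03, -0.02 and 0.06. Vim, the intermediate filament vimentin, was the memory-list gene with the smallest p, at 11.14 and 10.63 in wild type and 11.54 and 11.29 in CCR2-/-, a difference of 0.53 (95% interval 0.26 to 0.81; limma, unadjusted p = 0.00267). Id2, a partner that blocks E-protein transcription factors, was at 9.89 and 9.44 against 9.11 and 9.28, a difference of -0.47. The cell cycle list had 11 higher and 5 lower of 31 in both pairs and a median of 0.02.

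Markers of some other cells were higher on the CCR2-/- array of pair 1, mainly those of B cells, CD8 T cells and NK cells. In that pair the list median was 0.38 for the 2 CD8 T cell markers tested and 0.36 for NK cell markers. It was -0.04 for macrophage and monocyte markers and -0.17 for the 2 mast cell and basophil markers tested. Of the CD8 T cell markers, Cd8a was dim, at 4.51 to 4.91 on the CD45RBhigh arrays, and Cd8b1 differed by -0.06 in pair 2. The mean of the 8 B cell markers tested of 15 listed was 6.19 and 5.53 in wild type and 6.55 and 5.60 in CCR2-/-. This mean differed more between the pairs than between the genotypes. The median difference of the B cell markers was 0.49 in pair 1 and 0.00 in pair 2. Cd79a, part of the B cell receptor and chosen after its values were seen, was at 4.99 and 3.90 in wild type and at 5.86 and 4.24 in CCR2-/-. Spib, a transcription factor of B cells and plasmacytoid dendritic cells that missed the filter, was at 5.72 on the first CCR2-/- array and at 4.10 to 4.26 on the other 3. Not every marker went this way. Of the 8 markers tested 4 were higher and 2 lower in both pairs, and Ebf1, an early B cell factor, was at 5.44 and 4.59 in wild type and at 4.63 and 4.47 in CCR2-/-. The first CCR2-/- array had the highest mean of the B cell markers and the lowest mean of the interferon-response genes, and the part of other cells in the results of pair 1 was not tested. The 4 NK cell markers tested of 9 listed were all higher in both pairs, with a median difference of 0.24 and means of 4.67 and 4.82 against 5.00 and 4.96. These dim means lay around the array medians of 4.95 to 5.05. In bulk samples fewer cells of a type and less RNA per cell cannot be told apart.

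The genotype difference in CD45RBhigh cells was set against that in CD45RBlow cells by an interaction term. No gene passed an adjusted p of 0.05 (0% of 13508), and 288 (2.13%) had an unadjusted p under 0.05, or 160 without the block for the pairing. Within CD45RBlow cells 0% of genes passed and 587 (4.35%) had an unadjusted p under 0.05. Timp1, an inhibitor of metalloproteinases, differed by -0.07 (95% interval -0.47 to 0.33) in CD45RBhigh cells, at 4.83 and 4.68 against 4.67 and 4.69. In CD45RBlow cells it was at 5.24 and 5.52 in CCR2-/-, both below the lower wild-type array at 6.49, a difference of -1.37, and the interaction was 1.29 (limma, unadjusted p = 0.00105). Il4 differed by -0.22 in CD45RBhigh and by 0.85 in CD45RBlow cells, an interaction of -1.06 (limma, unadjusted p = 0.00114). Neither interaction passed adjustment. Of the 20 genes with a usual symbol taken for a small p in CD45RBhigh cells, 16 had the same sign in CD45RBlow cells, as had 59.8% of all genes tested. Over all genes the differences in the sorted populations correlated at 0.12 for arrays numbered 1 and at 0.41 for those numbered 2. Tmem181c-ps, Erdr1, Fyco1 and Ssbp4 were higher and Casp1 and Ssxb8 lower there at an unadjusted p under 0.05. Whether arrays of one number came from the same animals in the sorted populations is not stated in the labels.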

How the data were processed

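Per the labels' protocols, RNA was isolated with TRI Reagent from sorted cells, and 200 ng was labelled with an Affymetrix whole-transcript kit for 1 array per sample, 2 per group. The authors deposited log2 expression values for 41034 probe sets; per the submitters' processing notes these came from RMA and Partek, with no versions given. RMA compresses differences of dim probe sets. Gene names came from the platform annotation: 23521 probe sets had 1 symbol, 1814 several and 15699 none here. Only probe sets with 1 symbol were used, giving 22180 genes, the brightest probe set standing for the 1082 genes with several.

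From these values limma 3.58.1 in R 4.3.3 fitted the 4 group means with the pair number as a block over all 8 arrays (3 residual degrees of freedom), with Benjamini-Hochberg adjustment over the 13508 genes at or above the 40th percentile on 2 arrays or more. Its 95% intervals are not adjusted. The block is a rule set for this comparison: arrays were paired by the number in the title (no number taken as 1), and what the number marks is not stated; over genes, the second-minus-first differences of the 4 groups correlated at 0.109 to 0.531, and Xist separated the numbers. The test was checked on simulated data. With no gene past the threshold, named genes were first the 10 with the smallest p in each direction with the same sign in both pairs. Gene models named only by Gm, LOC, AK or BC numbers or as Rik clones were tested but not taken for these. Also named were the 2 with the smallest p of each pathway list, and a fixed set of CCR2 ligands, helper factors and cytokines. Not every one is printed, and cell type lists are given by counts. The members and lists were chosen with earlier results of these data known. Of the listed genes, 62 were not analysed here. Promoter windows are RefSeq's, and no gene coordinates of the array's own build are given.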

Additional observations from a re-analysis of the deposited data

How the results depend on the processing

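No gene passed the adjusted threshold under any of the 17 alternatives, and the adjusted p of Casp1 ranged from 0.0555, with arrays shifted to a common median, to 0.979, without the first wild-type CD45RBhigh array; its difference stayed between -1.57 and -1.26. With a single array left in a group, that array is assumed to vary like the others. The block effect then comes from the other groups, CD45RBlow ones included, so the fitted difference is not that of the remaining pair. Il10, for example, came to 0.39 without the first CCR2-/- CD45RBhigh array, while its difference in pair 2 was 0.05. A change of sign on leaving out an array can thus reflect the CD45RBlow arrays. Of the 92 genes followed, 69 kept their sign throughout. Without the block for the pairing, 354 genes had an unadjusted p under 0.05 (232 higher, 122 lower) and 160 in the interaction; with no filter the count was 986, since more genes were tested. Leaving out 1 array at a time gave 398 to 970 genes, 970 without the second CCR2-/- CD45RBhigh array (436 lower, against 209), and 156 higher genes, against 364, without the second wild-type one. Differences that crossed 0 when 1 array was left out ranged from -0.13 to 0.018 (Ccl2), -1.61 to 0.13 (Ccl22), -0.044 to 0.063 (Ccl7), -0.020 to 1.23 (Cd79a), -0.81 to 0.038 (Ctla4), -0.029 to 0.65 (Ctsw), -0.61 to 0.65 (Foxp3), -1.62 to 0.57 (Ifit1), -1.27 to 0.079 (Ifng), -0.84 to 0.39 (Il10), -0.29 to 0.59 (Il17a), -1.40 to 0.011 (Il2), -3.48 to 0.080 (Il21), -0.17 to 0.054 (Il2ra), -0.37 to 0.026 (Irf1), -1.70 to 1.44 (Irf7), -0.82 to 1.10 (Isg15), -1.31 to 0.43 (Oas3), -1.05 to 0.14 (Stat2), -0.59 to 0.15 (Tbx21), -0.28 to 0.14 (Timp1), -2.14 to 0.35 (Usp18) and -0.38 to 0.15 (Xist). Ccl7 and Foxp3 also crossed 0 with arrays shifted to a common median (-0.039 and -0.032) and after quantile normalization (-0.026 and -0.051). Of the other genes given with a difference in the report, these moved by over 1.5 times without 1 CD45RBhigh array while keeping their sign: -1.96 to -0.89 (Tnfrsf8), -0.98 to -0.49 (Calcrl), 0.80 to 1.91 (Ms4a4b), -1.16 to -0.33 (Casp4), -1.93 to -0.31 (Trim30d), -1.78 to -0.71 (Il24), -0.60 to -0.27 (Gata3), -2.01 to -0.36 (Il13), -1.42 to -0.31 (Csf2), -1.03 to -0.39 (Batf), 0.55 to 1.10 (Aldh1l2), -0.75 to -0.18 (Id2), -0.53 to -0.17 (Il5), -2.95 to -0.56 (Cysltr2), -2.56 to -0.68 (Lilrb4a), -0.40 to -0.037 (Il4) and 0.14 to 0.51 (Ccr2). The cause was not tested. The number of arrays, 2 per group, limits the precision.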

Other observations

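The genes in these paragraphs were chosen after their values were seen. The genes of MHC class II, which present antigen to CD4 T cells, did not all go the same way. H2-Aa was at 5.14 and 4.80 in wild type and at 6.86 and 5.07 in CCR2-/-. H2-Eb1 was at 7.67 and 6.89 against 8.31 and 7.24. H2-Aa was thus highest on the first CCR2-/- array, where Cd79a and Spib were highest too. H2-Ab1 was instead highest on the first wild-type array, at 8.47 against 8.29 on the first CCR2-/- array. In pair 2 H2-Ab1 was higher in CCR2-/-. H2-Ob and H2-DMb2 were higher in CCR2-/- in pair 1 and lower in pair 2, by -0.17 and -0.03. H2-Oa and H2-DMa were higher in both pairs. Ciita, the coactivator that switches on class II genes, was at 5.01 and 4.79 against 4.69 and 4.65. In the Ms4a family, Ms4a4c was at 5.86 and 5.52 in wild type and at 7.66 and 5.70 in CCR2-/-, while Ms4a6b was at 11.81 and 11.14 against 11.40 and 11.01.

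Among TNF receptor genes, Tnfrsf13c, the BAFF receptor, was at 7.07 and 7.35 in wild type and at 7.65 and 8.10 in CCR2-/-. Tnfrsf1b, which codes for TNF receptor 2, was at 7.90 and 8.02 against 8.34 and 8.27. Both differed from Tnfrsf8 in direction. Tnfrsf4 and Tnfrsf18, which code for OX40 and GITR, differed by 0.01 and 0.10. Il12rb2, the inducible chain of the IL-12 receptor, was at 11.56 and 10.18 in wild type and at 10.15 and 10.54 in CCR2-/-, and Gzmb, granzyme B, at 10.96 and 9.16 against 9.61 and 9.71, so both had their highest value on the first wild-type array. No gene of these families passed adjustment.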
